A study of Mus musculus with 9 samples.

Results

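The longest loci that the deposited tables list were described in retinal ganglion cells (RGCs), the neurons whose axons form the optic nerve. A gene was taken when its symbol had exactly 1 row in each library's table and its locus, from the first to the last annotated base, spanned at least 500000 bp. Of 23737 symbols with 1 row, 198 met this rule. Of these, 32 were set aside by the start of their symbol, mostly ion channels, neurotransmitter receptors, axon guidance and matrix proteins, motors, synaptic vesicle proteins and unnamed gene models, which left 166 genes. The rule itself used locus spans and symbols and no expression value.

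RNA sequencing was done on RGCs from wild-type C57BL/6J mice aged 8 weeks, 2 weeks after an injection into the eye. Control eyes received saline. Eyes that received microbeads, which slow the drainage of fluid and raise the intraocular pressure (IOP), were sorted by the pressure they reached into Mild IOP and Moderate IOP. RGCs were collected by immunopanning, in which unwanted cells are removed on antibody-coated dishes before cells carrying the surface antigen Thy1.2 are retained. RNA from 12 Control, 12 Mild IOP and 6 Moderate IOP retinas was pooled by group, and 3 technical replicates were drawn from each pool. Standard errors and p-values below therefore cover the spread between libraries of a pool and not the spread between animals.

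Levels are the authors' FPKM (fragments counted relative to transcript length and library size), after scaling between libraries. The depth derived from the confidence intervals of the FPKM values was 4370000 to 7810000 fragments per library. Values were compared with limma on the scale of log2(scaled FPKM + 1), a scale that understates the change of low genes. A gene was called at an FDR (Benjamini-Hochberg adjusted p over 13070 tested genes) under 0.1. In 7 libraries the most abundant gene held 1.87% to 3.59% of the summed FPKM, against 20.5% in Mild IOP replicate 2 and 9.14% in Moderate IOP replicate 3. All 14 RGC markers were detected, with a summed level of 2941 to 3027 FPKM in Control, 2217 to 2735 FPKM in Mild IOP and 4045 to 4282 FPKM in Moderate IOP. The 10 amacrine markers summed to 811 to 853, 892 to 949 and 597 to 640 FPKM in these groups, where Gad1, Gad2 and Slc6a9 carried the lower Moderate IOP sum and the median log2 fold-change of the 9 tested markers against Control was 0.024. The 9 Müller glia markers summed to 864 to 911, 879 to 930 and 979 to 1032 FPKM, the 10 bipolar cell markers to 77.8 to 100.3, 79.2 to 92.9 and 112 to 139 FPKM, and the 10 rod markers to 556 to 667, 370 to 441 and 391 to 448 FPKM. The 19 lens markers summed to 403 to 528 FPKM in Control, 14.2 to 16.4 FPKM in Mild IOP and 23.1 to 35.2 FPKM in Moderate IOP, with 3, 8 and 12 of them at 0 in every library of the group. The part of these markers in the results below was not tested. In pooled RNA, fewer cells of a type and less RNA per cell cannot be told apart.

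Very long genes owe their length to introns rather than to long messages, and RNA polymerase needs far more time to cross them than to cross an ordinary gene. Neurons express many of them, and a large share encode adhesion molecules, synaptic organisers and scaffolds that shape connections between cells. Their transcription is known to depend on topoisomerases, which relieve the twisting of DNA ahead of the polymerase, and on factors that keep the polymerase elongating. Several of these genes, such as Fhit and Wwox, lie at common fragile sites, chromosomal regions that tend to break when replication is slowed.

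The promoters of 3 genes are shown because all 3 were called below, Ptprk and Exoc4 as lower and Schip1 as higher in Moderate IOP than in Mild IOP, and because they differ in base composition. Each is the 250 bases before the start site listed farthest upstream (RefSeq, GRCm38.p6, plus strand, 5′ to 3′), so it stands at the end of the locus that gives the gene its length. Capitals mark the GC box GGGCGG or the CCAAT box, on either strand. The windows are chr10:28074570-28074819 for Ptprk, chr6:33248878-33249127 for Exoc4 and chr3:68064552-68064801 for Schip1.
Ptprk: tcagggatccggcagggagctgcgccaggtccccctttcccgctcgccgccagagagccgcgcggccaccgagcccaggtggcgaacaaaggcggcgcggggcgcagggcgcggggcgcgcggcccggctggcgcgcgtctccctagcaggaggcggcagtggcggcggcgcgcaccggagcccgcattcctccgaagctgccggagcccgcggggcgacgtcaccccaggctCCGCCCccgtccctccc
Exoc4: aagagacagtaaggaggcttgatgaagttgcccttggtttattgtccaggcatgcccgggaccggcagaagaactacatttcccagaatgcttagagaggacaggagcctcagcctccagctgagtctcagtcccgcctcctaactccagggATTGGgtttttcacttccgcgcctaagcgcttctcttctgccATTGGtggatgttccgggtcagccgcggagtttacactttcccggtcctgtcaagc
Schip1: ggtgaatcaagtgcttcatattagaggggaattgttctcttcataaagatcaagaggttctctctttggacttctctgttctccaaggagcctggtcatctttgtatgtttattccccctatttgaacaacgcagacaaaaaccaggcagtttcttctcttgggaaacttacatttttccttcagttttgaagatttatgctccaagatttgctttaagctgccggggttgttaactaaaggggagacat

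The Ptprk window was 79.2% G and C with 38 CpG dinucleotides and 1 GC box, the Exoc4 window was 54.8% G and C with 10 CpG and 2 CCAAT boxes, and the Schip1 window was 40.4% G and C with 2 CpG and neither motif. RefSeq windows were matched for 137 of the 166 genes. GGGCGG, searched on both strands like the motifs that follow, was present in 40.9% of these, in 33% of the 27025 windows in the table and in 59.6% of the 9750 windows of tested genes. CCAAT was present in 27%, 34.5% and 36.5%, TATAAA in 10.9%, 13% and 6.36%, and the E-box CACGTG in 4.38%, 6.04% and 8.57%. Median G and C content was 59.2% for the long-locus genes and 60% for tested genes, with 12 and 16 CpG. A match is a run of letters and not a shown binding site, and FPKM summed over a locus does not tell which start site was used. For 108 of the 137 genes the window ended at the edge of the locus in the authors' annotation.

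The 166 loci spanned 501754 to 2270659 bp (build mm10), with a median of 719936 bp against 14355 bp over all symbols with 1 row. Of these, 43 spanned at least 1 Mb. The longest 5 were Ptprd (2270659 bp, chromosome 4), a receptor phosphatase that organises synapses, Dmd (2256181 bp, chromosome X), which encodes dystrophin, Cntnap2 (2241311 bp, chromosome 6), a neurexin-like protein of the axon, Lrp1b (2056826 bp, chromosome 2), an LDL-receptor relative, and Macrod2 (1994621 bp, chromosome 2), an ADP-ribose hydrolase. At the limit of the rule, Dock1 (502961 bp), Car10 (502462 bp) and Edil3 (501754 bp) lay just inside, and Ank3 (493729 bp), Abca13 (492318 bp) and Dnm3 (490733 bp) just outside. In Control, Ank3 had 5.03 FPKM and Dnm3 95.9 FPKM, against 25.3 FPKM for Car10 and 33.6 FPKM for Edil3.

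Other features of the genes were not used by the rule. RefSeq matched 165 of them, of which 164 were listed as protein-coding and 5730522E02Rik as a long noncoding RNA. Their longest GENCODE transcripts had a median of 5634 nt against 2755 nt over all symbols with 1 row and 5524 nt over tested loci of 200 to 500 kb. More than 1 start site was annotated for 30.7% of them, against 8.84% of all symbols with 1 row. As a limit of the counting, another annotated locus lay inside 70 of the 166, and 56 of 165 shared exon bases with another gene. These counts were not made for shorter loci. The library kit does not keep the strand, so reads from shared exons cannot be told apart.

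Of the 166 genes, 140 (84.3%) had a mean scaled FPKM of at least 0.5 over the 9 libraries and were tested, against 54.8% of all symbols with 1 row. Of the 26 that were not tested, Spag16, Hpse2 and Skint5 were listed at 0 in every library, and the others had means of 0.015 to 0.478 FPKM. Among these were the giant extracellular proteins Csmd1 (0.236 FPKM) and Csmd2 (0.477 FPKM) and the receptor kinase Erbb4 (0.405 FPKM). A mean of at least 10 FPKM was reached by 47 genes (28.3%, against 25.6% of all symbols with 1 row), and of at least 50 FPKM by 9. The median tested gene had 5.19 FPKM, against 8.67 FPKM over all tested genes. Across the 140 tested genes, log10 span and log2 level had a Pearson's r of −0.049, given as a description since genes are not independent replicates.

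**Figure D1:**
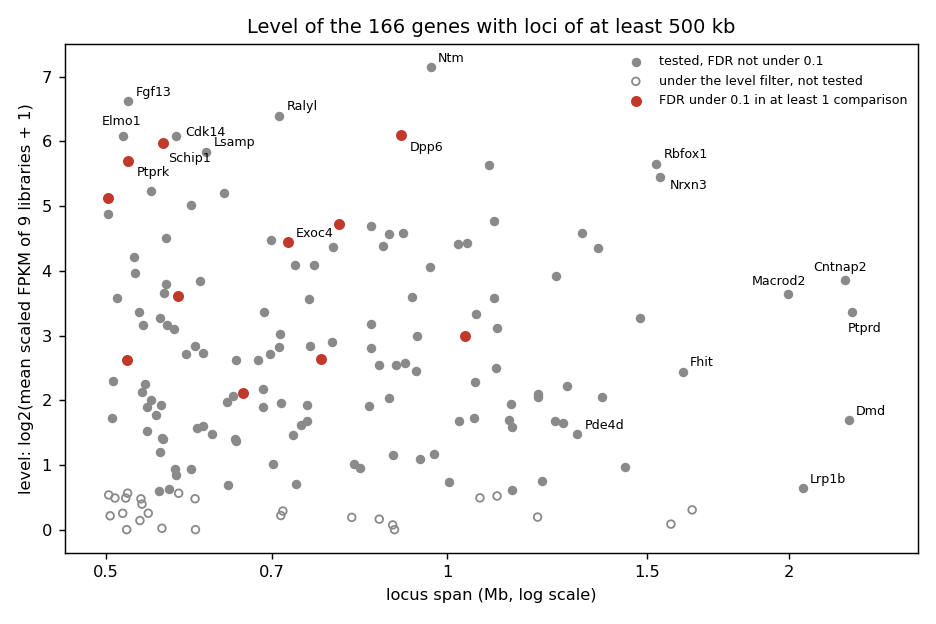
Each point is a gene with a locus of at least 500 kb, by locus span in Mb (horizontal, log scale) and log2 of the mean scaled FPKM of 9 libraries + 1 (vertical), open where not tested and red where the FDR was under 0.1 in at least 1 comparison. Ntm, at a mean of 141 FPKM, is the highest, and red points lie over much of the range of levels.

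The highest 10 included several proteins of the axon surface and its channels. Ntm (neurotrimin) and Lsamp, glycolipid-anchored adhesion proteins of the IgLON family, had means of 141 and 56.2 FPKM. Fgf13, an intracellular FGF homologous factor that binds voltage-gated sodium channels, had 97.4 FPKM, and Dpp6, an auxiliary subunit of Kv4 potassium channels, had 67.8 FPKM. The RNA-binding protein Ralyl had 83.1 FPKM and the splicing regulator Rbfox1, with a locus of 1527688 bp, had 49.3 FPKM. The remaining 4 were Elmo1, an activator of Rac signalling (67.1 FPKM), the kinase Cdk14 (66.9 FPKM), Schip1, a partner of schwannomin and ankyrins in axons (62.1 FPKM), and the receptor phosphatase Ptprk (50.6 FPKM). All 166 genes together held 0.273% to 0.386% of the summed FPKM of a library.

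Mild IOP and Control were compared to ask how the pool with the smaller pressure rise differed from Control. No long-locus gene passed the test, while most had a fold-change above 0. With limma, 0 of 140 had an FDR under 0.1, against 0.398% of all tested genes, and at an unadjusted p under 0.05 there were 9 of 140 (7 higher, 2 lower), against 10.1% of all tested genes (3.15% higher, 6.99% lower). By direction, 0.00765% of all tested genes were called higher and 0.39% lower. The log2 fold-change was above 0 for 97 of 140, against 50.9% of all tested genes (48.9% below 0), with a median of 0.126 (quartiles −0.033 and 0.281) against 0.006. All 3 Mild IOP libraries lay above all Control libraries for 17 genes (12.1%, against 7.94% of all tested genes) and below them for 6 (4.29%, against 9.11%).

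Among the genes whose Mild IOP and Control libraries did not overlap, the largest positive fold-changes were those of Cadps2, Hs6st3, Thsd7b, Vps13b and Nell1, none of which was called. Nell1, a secreted protein with EGF and thrombospondin domains, had 17.9, 20.8 and 16.5 FPKM in the Control replicates, 26.3, 28.3 and 31.1 FPKM in Mild IOP, and 23.6, 20.8 and 18.2 FPKM in Moderate IOP. Its Mild IOP libraries were the highest of the 9 (Mild IOP against Control, log2 fold-change 0.61 ± 0.16 SE, FDR = 0.20). Cadps2, a priming factor of dense-core vesicles, had the largest log2 fold-change of this kind (0.85 ± 0.36, FDR = 0.44), with at most 2.55 FPKM in any library. Cadps2 lay near the level filter and its fold-change ranged from 0.60 to 2.05 over the alternatives tried, so it is not read as a result. The largest negative fold-changes of this kind were those of Sgcz, 1700112E06Rik, Rarb, Nkain3 and Rgs6. Sgcz (−0.84 ± 0.42, FDR = 0.55) lay near the level filter, which it passed in only 7 of the 9 fits with 1 library left out. Its fold-change ranged from −2.60 to −0.80 over the alternatives tried. Rarb, a retinoic acid receptor, had 9.18, 5.58 and 6.36 FPKM in Control and 3.96, 3.15 and 4.14 FPKM in Mild IOP (−0.74 ± 0.23, FDR = 0.26), with 5.22, 4.09 and 4.96 FPKM in Moderate IOP. The IOP groups overlapped for Rarb, and both lay below Control.

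Moderate IOP and Control were compared to ask the same of the pool with the larger pressure rise. The receptor phosphatase Ptprk and the membrane protein Nkain3 fell, and no long-locus gene rose. These 2 of 140 (1.43%) stand against 1.84% of all tested genes (0.956% higher, 0.888% lower). At an unadjusted p under 0.05, 6 genes were higher and 13 lower, 13.6% in all against 15.3% of all tested genes (8.03% higher, 7.25% lower). The log2 fold-change was below 0 for 88 of 140, against 49.5% of all tested genes (50.5% above 0), with a median of −0.074 (quartiles −0.255 and 0.169) against 0.004. All 3 Moderate IOP libraries lay below all Control libraries for 19 genes (13.6%, against 9.48% of all tested genes) and above them for 10 (7.14%, against 9.94%).

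Nkain3 (chromosome 4, 20118874 to 20778668), which interacts with the sodium pump, had 4.8, 4.18 and 6.96 FPKM in Control, 2.97, 3.35 and 2.08 FPKM in Mild IOP and 1.28, 2.65 and 1.54 FPKM in Moderate IOP. Control was above both IOP groups without overlap, and the IOP groups overlapped. The log2 fold-change was −1.17 ± 0.28 in Moderate IOP against Control (FDR = 0.093) and −0.72 ± 0.28 in Mild IOP against Control (FDR = 0.39). Only 25 to 136 fragments stood behind each of these values, and when any of the 9 libraries was left out the FDR in Moderate IOP against Control was 0.101 to 0.212. Adarb2, an inactive relative of the RNA-editing adenosine deaminases, came close to a call. It had 10.9, 10.7 and 8.18 FPKM in Control, 9.55, 8.27 and 8.08 FPKM in Mild IOP and 5.78, 4.19 and 5.87 FPKM in Moderate IOP (Moderate IOP against Control −0.80 ± 0.20, FDR = 0.11), with Moderate IOP lowest throughout. The other large negative fold-changes without overlap were those of L3mbtl4 (−0.91 ± 0.31), Dlgap2 (−0.85 ± 0.28) and Exoc4 (−0.73 ± 0.20), with FDRs of 0.20, 0.19 and 0.14.

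None of the positive fold-changes against Control passed the test. Macrod2 had 7.49, 8.64 and 12.3 FPKM in Control, 10.3, 8.92 and 9.33 FPKM in Mild IOP and 13, 15.2 and 18 FPKM in Moderate IOP, the only group without overlap with the others (Moderate IOP against Control 0.66 ± 0.21, FDR = 0.17). Immp2l, a peptidase of the inner mitochondrial membrane, had 4.63, 7.98 and 12.3 FPKM in Control and 17.6, 14.9 and 13.2 FPKM in Moderate IOP (0.88 ± 0.30, FDR = 0.21). The glycosyltransferase Mgat4c (0.69 ± 0.24, FDR = 0.20) and the cAMP phosphodiesterase Pde4d (0.65 ± 0.25, FDR = 0.25) also had large positive fold-changes without overlap. Without Control replicate 3, Macrod2 and Immp2l passed, with FDRs of 0.096 and 0.0985.

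The direct comparison of Moderate IOP with Mild IOP is the test of whether the RNA pools of the pressure groups differed. Here 8 long-locus genes were lower in Moderate IOP, Ptprk, Exoc4, Dscam, Dpp6, Lphn3, Atrnl1, Camta1 and Edil3, and 2 were higher, Schip1 and 1700112E06Rik. The 10 of 140 (7.14%) stand against 10.1% of all tested genes. By direction, 5.71% of the long-locus genes were called lower against 3.11% of all tested genes, and 1.43% were called higher against 7.02%. At an unadjusted p under 0.05, 26 were lower (18.6%, against 8.84%) and 5 higher (3.57%, against 12.9%), with 21.8% of all tested genes in either direction. The log2 fold-change was below 0 for 104 of 140, against 51.5% of all tested genes (48.4% above 0), with a median of −0.234 (quartiles −0.439 and 0.002) against −0.016. All 3 Moderate IOP libraries lay below all Mild IOP libraries for 35 genes (25%, against 12.9% of all tested genes) and above them for 8 (5.71%, against 14.5%). Without scaling between libraries, the split over all tested genes moved from 917 higher and 407 lower to 731 higher and 662 lower, and the long-locus genes from 2 higher and 8 lower to 2 higher and 13 lower. Without Mild IOP replicate 2, the library dominated by a single gene, 2 long-locus genes were called and their median was −0.191. The values that follow are given by the role of the protein. Calls within a role stand beside the 10.1% of all tested genes called here.

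**Figure D2:**
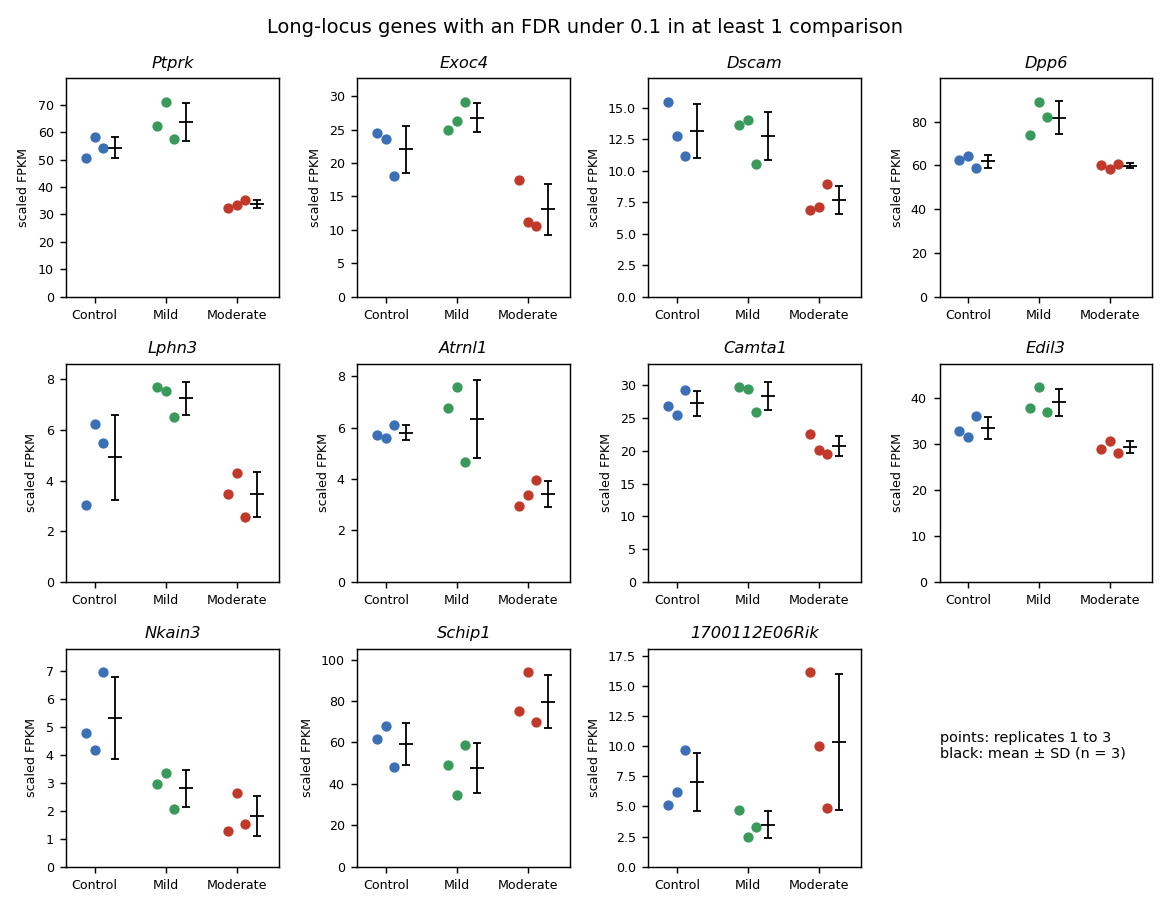
Each panel shows scaled FPKM (vertical axis from 0) of a gene called in at least 1 comparison, with the 3 replicates of Control, Mild IOP and Moderate IOP as points and the mean ± SD (n = 3) in black. Moderate IOP has the lowest mean in the first 9 panels and the highest in Schip1 and 1700112E06Rik.

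The 16 tested adhesion proteins of the IgLON, contactin and other immunoglobulin or leucine-rich repeat families hold neighbouring membranes together. Their median log2 fold-change in Moderate IOP against Mild IOP was −0.353, it was below 0 for 14 of them, and 1 was called, Dscam, which guides spacing and layering of retinal neurons. Dscam (chromosome 16, 96592079 to 97170735) had 15.5, 12.7 and 11.2 FPKM in Control, 13.6, 14 and 10.5 FPKM in Mild IOP and 6.9, 7.11 and 8.92 FPKM in Moderate IOP. Moderate IOP lay below every library of the other groups, by −0.66 ± 0.20 against Mild IOP (FDR = 0.076) and −0.71 ± 0.20 against Control (FDR = 0.14). Dscam shares exon bases with 2 annotated genes. Without Control replicate 2, Mild IOP replicates 1 or 2, or Moderate IOP replicates 1 or 2, its FDR against Mild IOP was 0.101 to 0.254. At an unadjusted p under 0.05, 7 of the 16 were lower in Moderate IOP than in Mild IOP and none higher, beside 18.6% lower and 3.57% higher of the 140 long-locus genes and 8.84% and 12.9% of all tested genes. They included Cntn4, an axonal contactin, at −0.63 ± 0.24 (FDR = 0.16), Mdga2, a regulator of neuroligin binding, at −0.53 ± 0.22 (FDR = 0.18), and Kirrel3, a synaptic adhesion protein, at −0.39 ± 0.14 (FDR = 0.13).

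The IgLON genes differed widely in level. In Control, Mild IOP and Moderate IOP, the means were 138, 133 and 151 FPKM for Ntm, 50.6, 59.4 and 58.6 FPKM for Lsamp, 10.3, 13.1 and 9 FPKM for Negr1 and 1.68, 2.9 and 2.17 FPKM for Opcml, and the single short member, Iglon5 (17117 bp), had 5.39, 5.28 and 7.36 FPKM. None of the 5 was called in any comparison. In the Cadm family, Cadm2 (965488 bp) had means of 16.1, 18.2 and 12.7 FPKM (Moderate IOP against Mild IOP −0.49 ± 0.18, FDR = 0.15). The much shorter Cadm3 (33442 bp) was higher in Moderate IOP, with means of 9.25, 7.31 and 12.4 FPKM (0.70 ± 0.17, FDR = 0.038). The other shorter relatives were not called, Cadm1 (323034 bp) at 154, 158 and 139 FPKM (−0.18 ± 0.11) and Cadm4 (22511 bp) at 7.13, 4.41 and 5.32 FPKM (0.24 ± 0.34). Among the contactins, Cntn4 had means of 22.4, 23.5 and 15 FPKM and Cntn5 of 2.22, 2.38 and 2.05 FPKM, beside 12.9, 16 and 13.6 FPKM for Cntn1, whose locus spans 290803 bp.

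Neurexins, neuroligins, teneurins, latrophilins and contactin-associated proteins pair across the synaptic cleft, and 11 of 12 were tested. Their median in Moderate IOP against Mild IOP was −0.211, with 10 of 11 below 0. Lphn3 (chromosome 5, 81021593 to 81795730), a latrophilin that binds teneurins and FLRT proteins, was the one called. It had 3.03, 6.22 and 5.48 FPKM in Control, 7.7, 7.52 and 6.51 FPKM in Mild IOP and 3.47, 4.31 and 2.57 FPKM in Moderate IOP. Mild IOP was above both other groups without overlap (Moderate IOP against Mild IOP −0.91 ± 0.27, FDR = 0.075, and Mild IOP against Control 0.52 ± 0.27, FDR = 0.56). Lphn3 shares exon bases with 1 other gene, and its FDR was 0.11 to 0.217 when any Mild IOP library or Moderate IOP replicate 1 or 3 was left out.

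The neurexin Nrxn3 was expressed without a call. Nrxn3 (1540430 bp) had 43.8, 38.9 and 37.8 FPKM in Control, 47.9, 53.6 and 45.1 FPKM in Mild IOP and 38.8, 42.2 and 37.6 FPKM in Moderate IOP, with Mild IOP highest (Moderate IOP against Mild IOP −0.30 ± 0.13, FDR = 0.21). Its shorter relative Nrxn2 (114480 bp) had means of 13.8, 11.7 and 16.6 FPKM. The neuroligin Nlgn1 (900069 bp) had 5.37, 4.77 and 4.39 FPKM. Its short relative Nlgn2 (11727 bp), the neuroligin of inhibitory synapses, was higher in Moderate IOP, at 1.5, 1.49 and 4.1 FPKM (1.02 ± 0.25 against Mild IOP, FDR = 0.041). The also short Nlgn3 (22172 bp) was not, at 18, 19.7 and 17.5 FPKM (−0.16 ± 0.18, FDR = 0.66). The teneurins with long loci, Tenm1, Tenm2 and Tenm4, had means of 1.81 to 5.98 FPKM in all groups with FDRs of 0.56 or more. Cntnap2 had 12.1, 14.1 and 14.2 FPKM, Cntnap5a 1.53, 1.31 and 0.85 FPKM and Cntnap5c 0.593, 0.739 and 0.485 FPKM, again without a call.

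The 6 tested cadherins, protocadherins and catenins, which link calcium-dependent adhesion to the actin cytoskeleton, had no call and a median of −0.132 in Moderate IOP against Mild IOP. Protocadherin 9 (Pcdh9) had 24.5, 21.9 and 19.6 FPKM in Control, 18.9, 25.8 and 18.9 FPKM in Mild IOP and 13.8, 17.2 and 17.1 FPKM in Moderate IOP, which lay below both other groups (against Control −0.43 ± 0.18, FDR = 0.28). The neuronal alpha-catenin Ctnna2 had means of 22.3, 31.4 and 25 FPKM, whereas Ctnna3, at 1573570 bp, had a mean of 0.061 FPKM and was not tested.

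Among receptor phosphatases and kinases, which add to or remove phosphate from tyrosines at the membrane, 7 of 8 were tested. Ptprk (chromosome 10, 28074820 to 28597397) was called in 2 comparisons. It encodes a phosphatase whose extracellular part binds its own kind on the next cell. Ptprk had 50.6, 58.3 and 54.3 FPKM in Control, 62.3, 71.2 and 57.6 FPKM in Mild IOP and 32.3, 33.6 and 35.3 FPKM in Moderate IOP. The Moderate IOP libraries lay far below the other 6, and Control and Mild IOP overlapped. The log2 fold-change was −0.89 ± 0.13 against Mild IOP (FDR = 0.0062) and −0.67 ± 0.13 against Control (FDR = 0.041), with 1001 to 3432 fragments behind each value. Against Mild IOP the call held in all 19 alternatives tried, and against Control its FDR was 0.105 to 0.135 without Control replicates 1 or 2 or Moderate IOP replicates 1 or 2.

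The other receptor phosphatases had no call. Ptprn2, a protein of dense-core vesicles, had 17.1, 16.1 and 15.4 FPKM in Control, 16.6, 17.5 and 23.7 FPKM in Mild IOP and 22.5, 23.6 and 23.7 FPKM in Moderate IOP. Moderate IOP was above Control without overlap (0.50 ± 0.16, FDR = 0.19), opposite in sign to Ptprk. Ptprd, the longest locus of all, had means of 9.48, 10.1 and 8.25 FPKM, beside 42.2, 44.9 and 35 FPKM for Ptprs (64055 bp) and 16.7, 25.2 and 18.1 FPKM for Ptprf (83185 bp). None of these 3 was called, Ptprf with an FDR of 0.1005 between the IOP groups. In Mild IOP against Control, all 7 tested genes of this group had a fold-change above 0, with a median of 0.222 and none called.

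Postsynaptic and membrane scaffolds hold receptors and channels in place, and 13 of 14 were tested, with no call and a median of −0.050 in Moderate IOP against Mild IOP. Dlg2, which encodes PSD-93, had 17.1, 16.7 and 21.8 FPKM in Control, 19.9, 25.8 and 21.6 FPKM in Mild IOP and 18.8, 19.2 and 13.6 FPKM in Moderate IOP (Moderate IOP against Mild IOP −0.37 ± 0.19, FDR = 0.28). Dlgap2, a partner of PSD-95, had means of 3, 2.33 and 1.24 FPKM. Its relative Dlgap1, shorter than the limit at 396622 bp, was called lower in Moderate IOP, with means of 54.2, 53 and 31 FPKM (−0.76 ± 0.14 against Mild IOP, FDR = 0.015, and −0.79 ± 0.14 against Control, FDR = 0.037). The scaffolds Magi1 and Magi2 had means of 4.91 to 9.6 FPKM. Their shorter relative Magi3 (207142 bp) had 6.84, 7.38 and 4.69 FPKM (Moderate IOP against Mild IOP −0.50 ± 0.28, FDR = 0.33). Dmd had 2.37, 2.5 and 2.77 FPKM in Control, 2.25, 2.6 and 2.2 FPKM in Mild IOP and 1.19, 2.24 and 1.87 FPKM in Moderate IOP (against Control −0.37 ± 0.24, FDR = 0.50).

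The 16 tested genes of 18 for large extracellular, secreted or matrix-modifying proteins had the lowest median in Moderate IOP against Mild IOP, −0.372, with 12 below 0, and in Mild IOP against Control 15 of 16 were above 0, with a median of 0.233. Dpp6 (chromosome 5, 26817357 to 27727500) was called. It had 62.4, 64.2 and 58.6 FPKM in Control, 74.1, 89 and 82.2 FPKM in Mild IOP and 60.1, 58.5 and 60.7 FPKM in Moderate IOP. Mild IOP was the group apart, since Control and Moderate IOP overlapped (Moderate IOP against Mild IOP −0.44 ± 0.12, FDR = 0.051, Mild IOP against Control 0.40 ± 0.12, FDR = 0.24, Moderate IOP against Control −0.05 ± 0.12). Its FDR was 0.102 to 0.189 without Mild IOP replicates 2 or 3 or Moderate IOP replicates 1 or 2. Fstl5, a secreted follistatin-like protein, also had Mild IOP as the highest group, without a call. It had 26.2, 30.1 and 37.5 FPKM in Control, 39.4, 50.1 and 40.4 FPKM in Mild IOP and 28, 31.9 and 37.5 FPKM in Moderate IOP (Mild IOP against Control 0.46 ± 0.17, FDR = 0.37). Dpp10, the other long gene for a Kv4 subunit of this kind, had means of 2.53, 2.84 and 3.31 FPKM. Lrp1b and Csmd3 were tested at means under 1 FPKM in each group.

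Of 17 genes for second-messenger and small GTPase signalling, 14 were tested and none called, with a median of −0.171 in Moderate IOP against Mild IOP. The FGF homologous factors Fgf12, Fgf13 and Fgf14 had means of 29.3, 31.4 and 33.7 FPKM, of 91.9, 108 and 92.6 FPKM, and of 19.4, 22.8 and 21.2 FPKM in Control, Mild IOP and Moderate IOP. Their short relative Fgf11 (5649 bp) had 14.9, 14.7 and 25.3 FPKM (Moderate IOP against Mild IOP 0.67 ± 0.27, FDR = 0.18). Elmo1 had 88.6, 80.2 and 66.1 FPKM in Control, 67, 59.5 and 67.7 FPKM in Mild IOP and 54.3, 57.4 and 63.4 FPKM in Moderate IOP, which lay below Control (−0.41 ± 0.14, FDR = 0.20). Pde4d was low in 6 libraries, at 1.41, 1.2 and 1.4 FPKM in Control and 1.28, 1.24 and 1.39 FPKM in Mild IOP, and had 2.81, 1.96 and 3.38 FPKM in Moderate IOP (0.67 ± 0.25 against Mild IOP, FDR = 0.15). The shorter Pde4b (352521 bp) was at 87.9, 93.5 and 73.1 FPKM.

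The RNA-binding proteins (5 of 5 tested) had no call. Rbfox1 had 40.4, 50.7 and 59.5 FPKM in Control, 47.8, 43.5 and 52.2 FPKM in Mild IOP and 52.9, 51.4 and 45.6 FPKM in Moderate IOP, with overlap throughout (0.06 ± 0.16 between the IOP groups). Its shorter relatives were both higher in Moderate IOP than in Mild IOP, Rbfox2 (228064 bp) with means of 5.76, 4.03 and 9.21 FPKM (0.99 ± 0.26, FDR = 0.052) and Rbfox3 (421838 bp), which encodes the neuronal marker NeuN, with 54.7, 51 and 68.1 FPKM (0.41 ± 0.12, FDR = 0.066).

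Among 10 tested transcription and chromatin factors of 12, the fold-change in Moderate IOP against Control was below 0 for 9, with a median of −0.160 and none called. Camta1 (chromosome 4, 151059523 to 151861768), a calmodulin-binding transcription activator, was called in Moderate IOP against Mild IOP. It had 26.9, 25.5 and 29.3 FPKM in Control, 29.8, 29.4 and 25.9 FPKM in Mild IOP and 22.6, 20.2 and 19.5 FPKM in Moderate IOP. Moderate IOP lay below the other 6 libraries (−0.43 ± 0.14, FDR = 0.098, and against Control −0.38 ± 0.14, FDR = 0.23). The FDR was 0.111 to 0.281 when any library but Control replicate 3 was left out. Esrrg, an orphan nuclear receptor, had 13.3, 8.31 and 13 FPKM in Control, 14.9, 20.8 and 16 FPKM in Mild IOP and 9.95, 10.9 and 13.1 FPKM in Moderate IOP, with Mild IOP highest and no call (−0.56 ± 0.22 between the IOP groups, FDR = 0.16).

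Enzymes and trafficking proteins (19 of 20 tested) had a median of −0.312 in Moderate IOP against Mild IOP, with 12 below 0. Of the 19, 2 were called, beside 10.1% of all tested genes. Exoc4 (chromosome 6, 33249150 to 33972930) encodes Sec8, a subunit of the exocyst that tethers vesicles to the plasma membrane. It had 24.5, 23.6 and 18 FPKM in Control, 25, 26.3 and 29.2 FPKM in Mild IOP and 17.5, 11.2 and 10.6 FPKM in Moderate IOP. Mild IOP lay above all Control libraries and Moderate IOP below them, and the call between the IOP groups (−1.01 ± 0.20, FDR = 0.019) held in all 19 alternatives. Without Moderate IOP replicate 1, Exoc4 was also lower than Control (−0.94, FDR = 0.072). Atrnl1 (chromosome 19, 57611034 to 58133340), the transmembrane relative of attractin, had 5.7, 5.57 and 6.11 FPKM in Control, 6.76, 7.58 and 4.66 FPKM in Mild IOP and 2.93, 3.38 and 3.95 FPKM in Moderate IOP. Moderate IOP was lowest (−0.72 ± 0.22 against Mild IOP, FDR = 0.091), although its FDR was 0.103 to 0.318 when any library but Mild IOP replicate 3 was left out.

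Fhit and Wwox, the 2 genes named above as examples of those at common fragile sites, were not called. Other genes at such sites were not grouped. Fhit, a hydrolase of diadenosine polyphosphates, had 1.59, 7.95 and 2.8 FPKM in Control, 2.57, 2.79 and 0.967 FPKM in Mild IOP and 4.53, 4.91 and 11.8 FPKM in Moderate IOP. The IOP groups did not overlap (1.32 ± 0.48, FDR = 0.14, and 0.0877 without Control replicate 2), and Control spanned much of the range of both. Wwox, an oxidoreductase, had 25.1, 18.7 and 15.5 FPKM in Control, 24.9, 20.8 and 26.1 FPKM in Mild IOP and 26.8, 26.1 and 22.6 FPKM in Moderate IOP, with overlap in each comparison.

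Of 37 genes in none of these groups, 23 were tested, with 3 calls between the IOP groups, beside 10.1% of all tested genes. Edil3 (chromosome 13, 88821472 to 89323225), a secreted integrin-binding protein and the shortest locus admitted, had 32.8, 31.6 and 36.2 FPKM in Control, 38, 42.5 and 37.0 FPKM in Mild IOP and 29.0, 30.8 and 28.2 FPKM in Moderate IOP. Mild IOP lay above and Moderate IOP below all Control libraries (−0.40 ± 0.13 between the IOP groups, FDR = 0.097), and the FDR was 0.12 to 0.314 when any library but Control replicate 3 was left out. Schip1 (chromosome 3, 68064802 to 68626482) had 61.6, 68 and 48 FPKM in Control, 49.3, 34.8 and 58.6 FPKM in Mild IOP and 75.1, 94 and 69.9 FPKM in Moderate IOP. Moderate IOP was the highest group (0.75 ± 0.20 against Mild IOP, FDR = 0.056, and 0.42 ± 0.20 against Control, FDR = 0.36). Schip1 has 4 annotated start sites and shares exon bases with 1 gene, and its FDR was 0.104 to 0.195 without Mild IOP replicates 1 or 2 or Moderate IOP replicates 1 or 2. 1700112E06Rik (chromosome 14, 22019712 to 23056088), named Lrmda in RefSeq, had 5.13, 6.21 and 9.69 FPKM in Control, 4.74, 2.5 and 3.27 FPKM in Mild IOP and 16.1, 9.98 and 4.88 FPKM in Moderate IOP. The IOP groups were only just apart (1.23 ± 0.37, FDR = 0.084), on 12 to 60 fragments per value, with an FDR of 0.109 to 0.267 when Control replicate 2, any Mild IOP library or Moderate IOP replicate 1 or 2 was left out. The largest other fold-changes between the IOP groups without overlap were those of Cadps2 (−1.05 ± 0.36, FDR = 0.12) and Thsd4, a secreted ADAMTS-like protein (−0.77 ± 0.28, FDR = 0.14). That of Cadps2, near the level filter, ranged from −2.57 to −0.81 over the alternatives tried and is not read as a result.

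**Figure D3:**
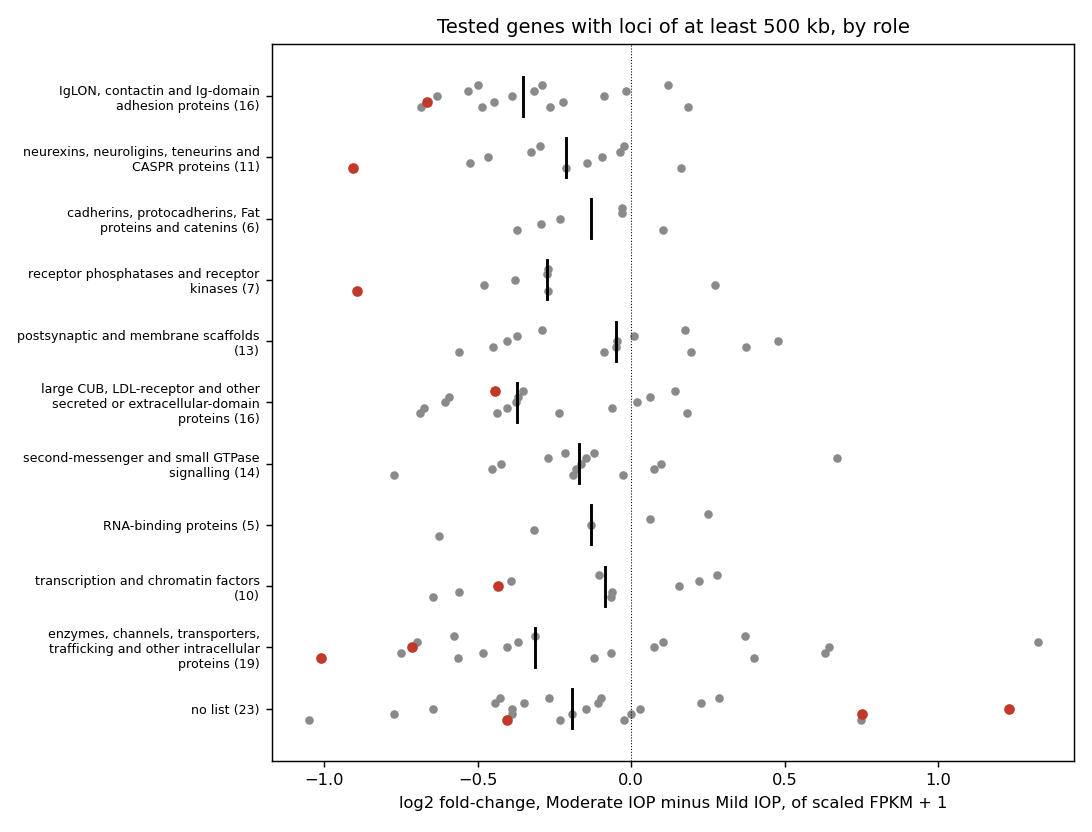
Each point is a tested gene with a locus of at least 500 kb, placed by its log2 fold-change in Moderate IOP minus Mild IOP (horizontal axis, of scaled FPKM + 1) in rows by role, with the number tested in brackets, the median as a black bar and an FDR under 0.1 in red. The median of every row lies below 0, from −0.372 in the large extracellular proteins to −0.050 in the scaffolds, and points lie on both sides of 0 in every row.

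The fold-changes were set beside those of shorter loci as a description. In Moderate IOP against Mild IOP the median was 0.190 for the 3746 tested loci under 10 kb, −0.044 for 10 to 50 kb, −0.109 for 50 to 100 kb, −0.134 for 100 to 200 kb, −0.146 for 200 to 500 kb and −0.234 for the 140 long-locus genes. The share called higher was 16.2% under 10 kb, 1.05% at 200 to 500 kb and 1.43% of the long-locus genes, and the share called lower was 1.49%, 6.85% and 5.71%. The 24 tested long loci set aside by name had a median of −0.372. Within the long-locus genes the order did not continue, since the 38 tested genes of at least 1 Mb had a median of −0.156 and those under 1 Mb had −0.268. In Mild IOP against Control the medians ran from −0.124 under 10 kb to 0.099 at 200 to 500 kb and 0.126 in the long-locus genes, and in Moderate IOP against Control from 0.076 to −0.038 and −0.074.

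Single libraries were compared by the deviation of each gene from its own mean over the 9 libraries. The median deviation of the long-locus genes was −0.052, −0.007 and 0.009 in the Control replicates, 0.038, 0.199 and 0.088 in Mild IOP and −0.193, −0.085 and −0.062 in Moderate IOP. Mild IOP replicate 2 and Moderate IOP replicate 1 lay farthest out, and the groups did not overlap. Mild IOP replicate 2 also had the lowest value for loci under 10 kb, −0.225, where the Moderate IOP replicates lay between 0.093 and 0.119. Of the 140 genes, 63 to 75 were above their own mean in the Control libraries, 80 to 102 in Mild IOP and 39 to 60 in Moderate IOP.

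**Figure D4:**
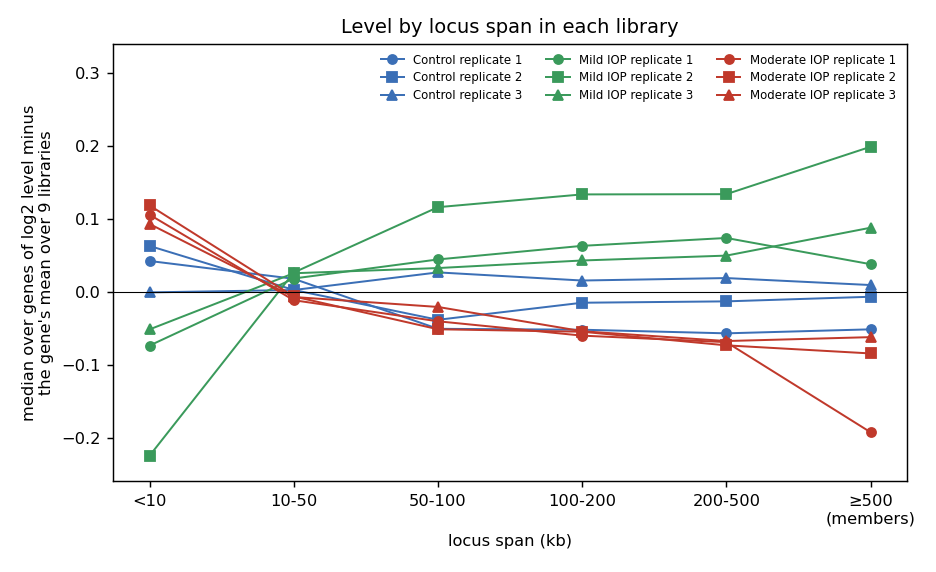
Lines show, for each of the 9 libraries, the median over tested genes of the log2 level minus the gene's mean over all libraries (vertical axis), by locus span in kb (horizontal axis), with the long-locus genes at the right end. The Mild IOP lines start below 0 and end above it, the Moderate IOP lines do the reverse, and Mild IOP replicate 2 spans the widest range, from −0.225 to 0.199.

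Loci that are long also tend to have long transcripts, so the medians were given within classes of the longest GENCODE transcript, a split made after the values were seen. In Moderate IOP against Mild IOP, transcripts of 4000 to 8000 nt had a median of −0.143 in 2157 loci under 50 kb and of −0.295 in 70 long-locus genes. Transcripts of at least 8000 nt had −0.026 in 163 loci under 50 kb and −0.182 in 36 long-locus genes, and those of 2000 to 4000 nt had −0.018 in 4128 and −0.123 in 25. Transcripts under 2000 nt had 0.346 in 2615 loci under 50 kb and 0.205 in the 4 long-locus genes with such transcripts. Within each class the long-locus genes had a lower median than loci under 50 kb, and medians differed between transcript classes as well. Loci of 200 to 500 kb, in the same order of classes, had −0.192, −0.104, −0.127 and 0.281. They too lay below loci under 50 kb in each class, and at 2000 to 4000 nt they were level with the long-locus genes. By level, long-locus genes of 2 to 10 FPKM had −0.271 (65 genes) against −0.058 in 2929 loci under 50 kb. Those of 10 to 50 FPKM had −0.212 (38 genes) against 0.008 in 3132. Loci of 200 to 500 kb had −0.174 and −0.178 in these classes. At 0.5 to 2 FPKM the 28 long-locus genes had −0.047, above the −0.104 of loci of 200 to 500 kb, with −0.004 under 50 kb. At 50 FPKM and more, the 9 long-locus genes had −0.147, with −0.121 at 200 to 500 kb and 0.287 under 50 kb. The parts of transcript length and level in these medians were not tested.

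Genes of the machinery that transcribes long loci were read from the same comparisons. Of 7 tested topoisomerase and repair genes, 1 was called between the IOP groups, beside 10.1% of all tested genes. The median log2 fold-change of the 7 was −0.050. Top2b, the topoisomerase II of neurons, was the gene called, as lower in Moderate IOP. It had 17.1, 16.6 and 26.7 FPKM in Control, 20.5, 23.2 and 22.9 FPKM in Mild IOP and 10.2, 11.3 and 10.3 FPKM in Moderate IOP. Moderate IOP lay below all other libraries (−0.99 ± 0.19 against Mild IOP, FDR = 0.016, and −0.83 ± 0.19 against Control, FDR = 0.08). Top1, the topoisomerase best known for long genes, was not called, with 15.2, 12.4 and 18 FPKM in Control, 10.5, 8.1 and 13.4 FPKM in Mild IOP and 20.4, 15 and 14.9 FPKM in Moderate IOP (Moderate IOP against Mild IOP FDR = 0.13). Among 36 elongation factors, 2 were called between the IOP groups, beside 10.1% of all tested genes. Supt4a, a subunit of DSIF, was higher in Moderate IOP, with means of 217, 137 and 243 FPKM (0.84 ± 0.16, FDR = 0.014). The ELL-associated factor Eaf2 was listed at 0 in the Moderate IOP libraries (FDR = 0.029). It had 0.302, 0.722 and 0.114 FPKM in Control and 1.13, 1.37 and 1.75 FPKM in Mild IOP, on at most 11 fragments per value. Only its Mild IOP mean was above the level filter of 0.5 FPKM, so this call is not read as a result.

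Of 14 factors known to act on long genes, 3 were called lower in Moderate IOP than in Mild IOP and none higher, beside 3.11% and 7.02% of all tested genes. Ewsr1, an RNA-binding protein of the FET family, had 192, 186 and 185 FPKM in Control, 187, 216 and 175 FPKM in Mild IOP and 131, 128 and 121 FPKM in Moderate IOP, well below the other groups (−0.60 ± 0.11, FDR = 0.013, and against Control −0.56 ± 0.11, FDR = 0.044). The nuclear matrix protein Matr3 had means of 96.9, 120 and 83.4 FPKM (−0.52 ± 0.13, FDR = 0.043), and the paraspeckle protein Nono had 91, 98.5 and 77.9 FPKM (−0.33 ± 0.11, FDR = 0.098). Sfpq, the partner of Nono, was not called. No relation between these genes and the long-locus genes was tested.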

How the data were processed

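RGC RNA from 3 groups was sequenced in 9 libraries (oligo-dT primed SMART-seq v4, Nextera XT, Illumina). Reads were aligned to mm10 by the authors (bowtie2 in the methods, TopHat2 in the submitters' processing notes) and FPKM was estimated with Cufflinks, library by library. The deposited FPKM tables held 23997 symbols. Loci that carry 1 symbol were added up, and 2 symbols with a failed estimate, neither a member, were left out. Libraries were divided by median-of-ratios factors of 0.966 to 1.039. The test was limma 3.58.1 (R 4.3.3) on log2(scaled FPKM + 1), for genes whose mean reached 0.5, with 1 mean per group, all 9 libraries sharing the variance estimate and a trend in it, and p-values were adjusted by Benjamini-Hochberg within each comparison. The members, role lists and tests were chosen with earlier results of these data known. Named genes were every gene called, the 5 largest rises and falls per comparison among genes without overlap, the 10 highest, the 5 longest, the 3 on each side of the length limit, paralogue families and called pathway genes. Some genes that this rule names are not reported here. Genes named beside these as examples of a group were chosen after their values were seen.

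Cufflinks confidence bounds gave the fragments behind a value as the square of 2 times FPKM over the upper half-width. Depth was derived over transcripts of at least 2000 nt (GENCODE M21) with at least 100 fragments, and covers counting error only. In data simulated for Moderate IOP against Control (12906 genes), changes were placed only in genes with a mean log2(scaled FPKM + 1) above 2. There, 43 of 100 changes of 0.75 and 80 of 100 changes of 1.5 on the log2 scale were recovered, with 9 false calls. Lower genes, among them the 28 tested long-locus genes of 0.5 to 2 FPKM, were not covered. Alternatives covered scaling, pseudocount, level filter, failed estimates, variance groups, a replicate block, a limit of 1 Mb and each library left out. Figures were drawn with matplotlib 3.10.9 in Python 3.11.15.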

Additional observations from a re-analysis of the deposited data

Results flagged for a closer look

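In 2 long-locus genes the IOP groups moved to opposite sides of Control. All Mild IOP libraries of Exoc4 lay above all Control libraries and all Moderate IOP libraries below them, and the difference between the IOP groups was −1.01 ± 0.20 on the log2 scale (FDR = 0.019). Edil3 had the same arrangement, with a difference between the IOP groups of −0.40 ± 0.13 (FDR = 0.097). For neither gene did the separate comparisons with Control pass the test.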

How the results depend on the processing

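The counts of called genes were small and moved with the processing, whereas the medians kept their sign. In Mild IOP against Control no long-locus gene was called under any alternative. In Moderate IOP against Control the count of 2 became 1 with a pseudocount of 0.1, with a filter at 0.1 FPKM, without a filter or with the variance of the 2 compared groups alone, and 0 for loci of at least 1 Mb, whose median was −0.014. It ranged from 0 to 4 when libraries were left out, at 0 without Control replicates 1 or 2 or Moderate IOP replicate 2, 4 without Control replicate 3 and 1 without each of the other 5 libraries. In Moderate IOP against Mild IOP the count of 10 became 6 without a filter and 1 for loci of at least 1 Mb. It ranged from 2 to 12 when libraries were left out, at 2 without Mild IOP replicate 2 or Moderate IOP replicate 1, 3 without Mild IOP replicate 1, 4 without Moderate IOP replicate 2 and 6 without Control replicate 2 or Mild IOP replicate 3. Its median was −0.310 without scaling, −0.300 with a pseudocount of 0.1, −0.179 without a filter and −0.156 for loci of at least 1 Mb, and −0.277 to −0.191 when libraries were left out. Over all tested genes, calls in Moderate IOP against Control split into 125 higher and 116 lower, and without scaling into 107 and 148. They became 87 and 56 with the variance of the 2 compared groups, 74 and 60 with the replicate block, 33 and 28 without Control replicate 1, 48 and 38 without Control replicate 2 and 56 and 54 without Moderate IOP replicate 2. In Mild IOP against Control, 1 higher and 51 lower became 3 and 21 without a filter, 1 and 22 with 2-group variance, 2 and 23 with the block, 0 and 15 without Mild IOP replicate 2 and 2 and 181 without Mild IOP replicate 3. Without Mild IOP replicate 2, 917 higher and 407 lower between the IOP groups became 429 and 91. The cause of these moves was not tested. Between the IOP groups, the calls of Exoc4 and Ptprk held in 19 of 19 alternatives, those of Dpp6, Schip1, Dscam and Lphn3 in 13 to 15, and those of 1700112E06Rik, Camta1, Edil3 and Atrnl1 in 10, 8, 8 and 7.

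Replicate numbers did not pair the libraries. Deviations of same-numbered libraries correlated at −0.005 to 0.045 across genes, and none of 9 pairs exceeded 0.1. With the replicate number as a block, 0, 1 and 5 long-locus genes were called in the 3 comparisons.

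Depth limits the low genes, since the median tested gene rested on 101 to 230 fragments per library and some called genes on far fewer.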
